A study of Caenorhabditis elegans with 9 samples.

Results

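Here 55 genes for proteins of the cytosolic ribosome of Caenorhabditis elegans were followed, 30 of the small (40S, rps-) and 25 of the large (60S, rpl-) subunit, out of 20389 genes in the deposited count tables. They were chosen by sequence name from a fixed list of rps- and rpl- genes, by a rule that uses no measured value, and all 55 names were found. RNA of mixed embryos was sequenced in 3 libraries for each of 3 strains, to compare gene expression after induction of a tagged condensin subunit. DPY-27 is the SMC subunit that sets the dosage compensation condensin apart from the other condensins of the worm. The DPY-27::GFP strain (MK14, genotype hsp::dpy-27::gfp) carries a GFP-tagged copy of DPY-27. The DPY-27(EQ)::GFP strain (KB01, genotype hsp::dpy-27[EQ-TR]::gfp) carries the same copy with a glutamate-to-glutamine change in the Walker B motif of its ATPase domain, and the reference was the wild type (WT) strain N2. By the study's methods, each transgene is a single-copy insertion on chromosome II that is driven by the hsp-16.41 heat-shock promoter and ends in the dpy-27 3′ UTR, and both strains keep the endogenous dpy-27 gene. The parents, wild type as well as transgenic, spent 30 min at 35°C and then 2 h at room temperature before embryos were taken by bleaching, so no library is free of heat shock.

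A ribosome is built from ribosomal RNA and one copy of most of these proteins per subunit. The small subunit binds the mRNA and reads its codons against transfer RNA, while the large subunit joins amino acids at the peptidyl transferase centre. The genes are among the most highly transcribed in growing cells, their mRNAs are short, and an embryo starts from ribosomes and mRNAs laid down in the oocyte. Levels are given below as TPM (the share of a transcript among all transcripts on a fixed scale, which divides by transcript length, so that genes can be compared with each other), and differences between strains as log2 fold changes fitted with edgeR to the read counts, each with its standard error. CPM gives the reads on a gene relative to the reads on all genes, after scaling by edgeR's TMM factors. A gene is called higher or lower where the Benjamini-Hochberg adjusted p over all 12643 genes tested was under 0.05. All libraries hold RNA of whole embryos, so a lower level may stand for fewer cells of a type or for less RNA per cell, and these cannot be told apart.

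Several properties of the libraries went along with the strains. Reads counted on genes numbered 7062182 to 9582838 in DPY-27::GFP, 7573682 to 21281027 in DPY-27(EQ)::GFP and 17107945 to 23536013 in wild type. For each read on a gene there were 0.0346 to 0.0407 reads on no annotated feature in DPY-27::GFP embryos and 0.0375 to 0.0826 in DPY-27(EQ)::GFP, against 1.04 to 1.09 in wild type. The deposited library names carry 1 prefix for the 3 wild-type libraries and for replicate 3 of DPY-27(EQ)::GFP, while the other 5 carry a second one. The count on dpy-27, which takes reads of the transgene and of the endogenous gene, was 802, 451 and 817 CPM in DPY-27::GFP embryos and 591, 514 and 901 CPM in DPY-27(EQ)::GFP, against 465, 472 and 484 CPM in wild type. Replicate 2 of DPY-27::GFP thus did not exceed wild type, and neither difference was past the threshold (edgeR adjusted p 0.159 and 0.205). Markers of embryo stage were followed too. Of 24 maternal transcripts tested, DPY-27::GFP embryos had 0 called higher and 5 lower than wild type, with a summed level of 1172 to 2510 CPM in DPY-27::GFP embryos and 1973 to 3406 CPM in wild type. Of 22 late embryo differentiation genes, 10 were called higher and 1 lower, with summed levels of 17950 to 27597 CPM in DPY-27::GFP embryos and 17286 to 21297 CPM in wild type. In DPY-27(EQ)::GFP, 0 and 5 maternal transcripts were called higher and lower (summed level 1461 to 1824 CPM) and 3 and 0 late genes (17853 to 24580 CPM). Of 36 adult yolk and sperm genes, 5 passed the filter on low counts and 0 were called, although the labels name the source as whole worms and the stage as mixed embryo. All 5 had a fold change above 0 against wild type in DPY-27::GFP (median log2 fold change 1.71) and in DPY-27(EQ)::GFP (0.75). Their summed level was 15.3 to 36.5 CPM in DPY-27::GFP and 7.43 to 27.9 CPM in DPY-27(EQ)::GFP, against 3.98 to 14.4 CPM in wild type. The labels do not say that the libraries of a strain came from separate cultures, so p-values measure the spread between these libraries, which may be technical. The part of embryo stage, depth and reads off features in the differences from wild type given below was not tested.

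The 55 genes were among the most abundant mRNAs of the embryo in every strain. Their median level was 1557 TPM in DPY-27::GFP, 1739 TPM in DPY-27(EQ)::GFP and 1571 TPM in wild type, where the median gene stood at 3.99 TPM. In wild type, 34 of the 55 were among the 100 genes of highest TPM and 54 were among the first 500. Leaving out rpl-11.1, the levels in wild type ran from 637 TPM for rpl-22 to 3758 TPM for rps-28. The spread of single members between wild-type libraries was small beside this range, with a coefficient of variation of 1.31% to 16.3%. The plot of all 55 levels shows that the order of the genes was not the same in each strain: rps-28 stood highest in wild type, rps-20 in DPY-27(EQ)::GFP (3208 TPM) and rpl-24.1 in DPY-27::GFP (2717 TPM).

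**Figure D1:**
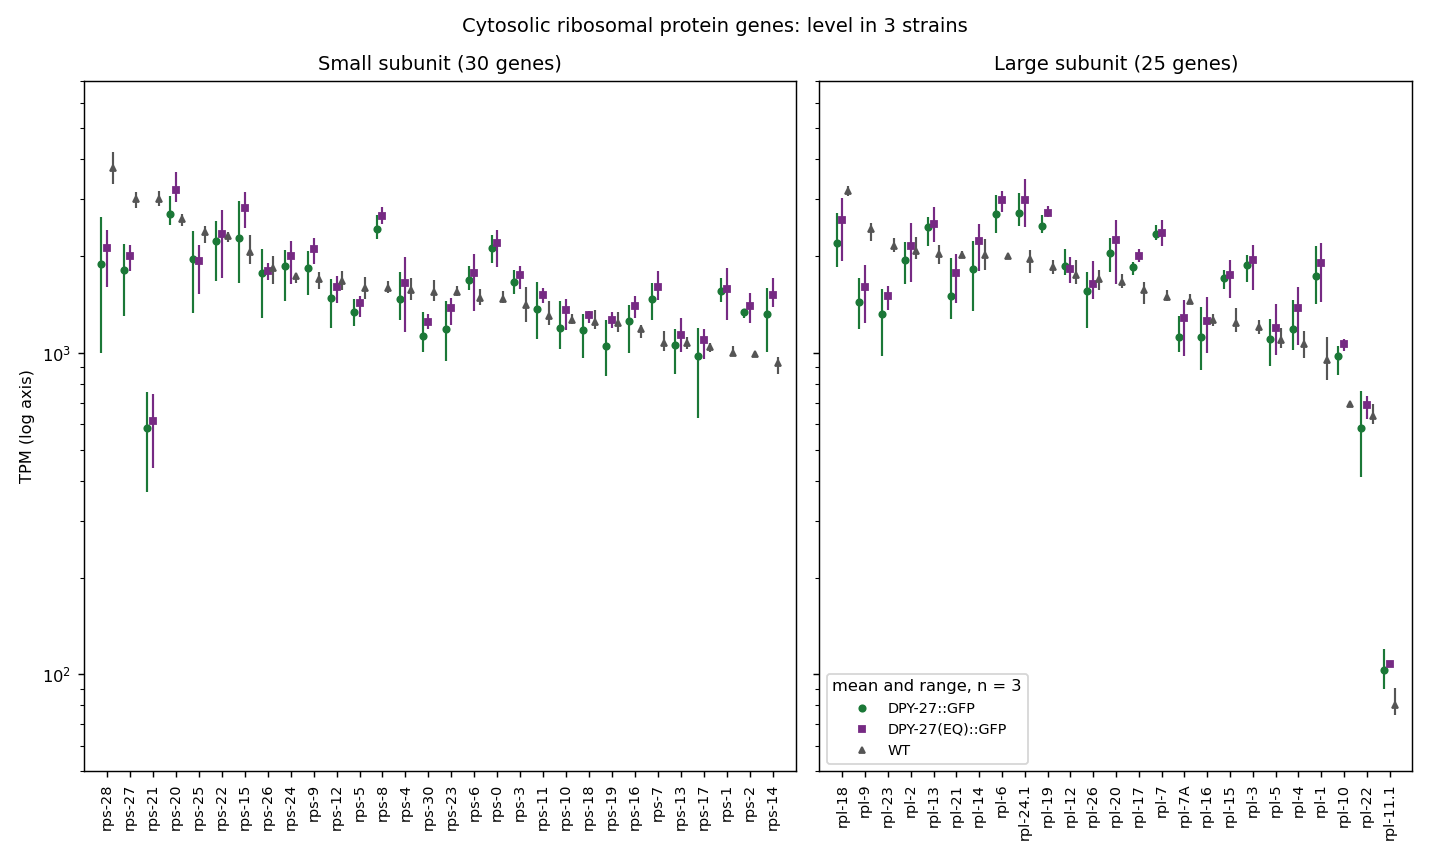
Level of each of the 55 ribosomal protein genes in TPM (log axis), ordered by the wild-type mean within each subunit; symbols are means of 3 libraries and bars run from the lowest to the highest library. Means lie between 582 and 3758 TPM except for rpl-11.1 at 80.1 to 107 TPM, and rps-21 shows the widest gap between the transgenic strains (585 and 614 TPM) and WT (3000 TPM).

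The highest members of the small subunit in wild type were rps-28 and rps-27, both short proteins. Among large subunit genes they were rpl-18 and rpl-9. Averaged over all 9 libraries, rps-20 and rpl-6 were also among the highest. The gene rps-20 had 2493, 3064 and 2562 TPM in DPY-27::GFP, 3655, 3037 and 2933 TPM in DPY-27(EQ)::GFP and 2613, 2472 and 2708 TPM in wild type. For rpl-6 there were 2652, 3104 and 2352 TPM in DPY-27::GFP, 3187, 2746 and 3047 TPM in DPY-27(EQ)::GFP and 2002, 2017 and 1966 TPM in wild type, so that both transgenic strains lay above wild type without overlap. For rps-20 this held for DPY-27(EQ)::GFP, while DPY-27::GFP overlapped wild type. The lowest small subunit gene was rps-21 in DPY-27::GFP (585 TPM) and in DPY-27(EQ)::GFP (614 TPM), and rps-14 in wild type (932 TPM). Averaged over all 9 libraries the lowest were rps-17, with 627 to 1197 TPM, and rps-13, with 859 to 1286 TPM. Neighbours in this order could lie within their spread, as did rps-27 at 3003 ± 167 TPM and rps-21 at 3000 ± 163 TPM (SD, n = 3) in wild type. In the large subunit rpl-22 had 412 to 761 TPM over the 9 libraries. The lowest gene of all was rpl-11.1, which encodes 1 of a pair of paralogs of the protein that holds the 5S ribosomal RNA in place together with RPL-5. Its level was 99.1, 90.01 and 120 TPM in DPY-27::GFP, 110, 107 and 105 TPM in DPY-27(EQ)::GFP and 74.8, 74.7 and 90.8 TPM in wild type. Its paralog rpl-11.2, which is X-linked and was not on the list, stood at 961, 1194 and 982 TPM in DPY-27::GFP, 1242, 971 and 1149 TPM in DPY-27(EQ)::GFP and 1085, 1170 and 1132 TPM in wild type. The paralog was the higher of the pair in every library, and neither gene was called in any comparison. Reads that match both copies could have been assigned to either or left out, so the split between them is uncertain.

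None of the 55 genes is X-linked, although 15.3% of the genes tested are. Chromosomes I, III and IV carry 16, 14 and 15 of them, and chromosomes II and V carry 5 each. Positions below come from the TPM table and refer to the WS220 build, and every member is annotated as protein-coding. The genes are short: the median exonic length was 507 bases for the small subunit and 665 bases for the large subunit, against 1456.5 bases over the genes tested, and the encoded proteins have 65 to 401 residues. Of the 55 genes, 6 share 3 to 67 exonic bases with a gene on the opposite strand, 5 share 1 to 110 exonic bases with a gene on the same strand, and 12 hold a snoRNA gene within their span, so their counts depend on how overlapping reads were assigned. For rpl-16 (chromosome III, 3502823 to 3503597) the count files give 0 reads in each of the 9 libraries, below the 3 counts taken as the floor, while the TPM table lists 1081, 1392 and 884 TPM in DPY-27::GFP, 1278, 1000 and 1488 TPM in DPY-27(EQ)::GFP and 1214, 1324 and 1261 TPM in wild type. The pair of tables therefore disagree on this gene, it could not be tested, and the tests below cover the 54 other members, all of which passed the filter on low counts.

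As a group, the members took 2.67%, 3.91% and 3.52% of the reads on genes in DPY-27::GFP embryos, 4.25%, 3.37% and 3.75% in DPY-27(EQ)::GFP and 3.26%, 3.77% and 3.54% in wild type. The means were 3.37 ± 0.63% in DPY-27::GFP, 3.79 ± 0.44% in DPY-27(EQ)::GFP and 3.53 ± 0.26% in wild type (SD, n = 3 each), so the strains overlapped. Summed TPM gave shares of 7.62% to 10.6% over the 9 libraries.

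Within a strain most members moved together in some libraries and split in others. In DPY-27::GFP, replicate 1 had the lowest CPM for 54 of the 54 genes, while it was lowest for 24.8% of all genes tested. There the members lay at a median of -0.36 on the log2 CPM scale relative to the mean of their strain, against -0.06 for 6116 other genes in the same range of exonic length. In DPY-27(EQ)::GFP, replicate 1 lay above the mean of its strain for 54 of 54 members (median 0.19, against -0.01 for the other genes), and replicate 2 lay below it for 45 (median -0.18, against 0.07). In wild type, replicate 1 was lowest for 52 of 54 members, with a smaller shift (median -0.14, against -0.04). In replicate 3 of DPY-27(EQ)::GFP the members split, with 29 of 54 above the mean (median 0.00), and in wild-type replicate 3 there were 37 above it (median 0.03). In these 3 libraries numbered 1, small and large subunit genes lay together on the same side of the mean. The median coefficient of variation of the TPM over 3 libraries was 16.7% in DPY-27::GFP, 12.16% in DPY-27(EQ)::GFP and 6.45% in wild type, and for all genes of at least 10 TPM it was 21.4%, 12.3% and 9.29%. Genes that move together between replicates are not independent measurements of a strain, and a single library can shift all of them.

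**Figure D2:**
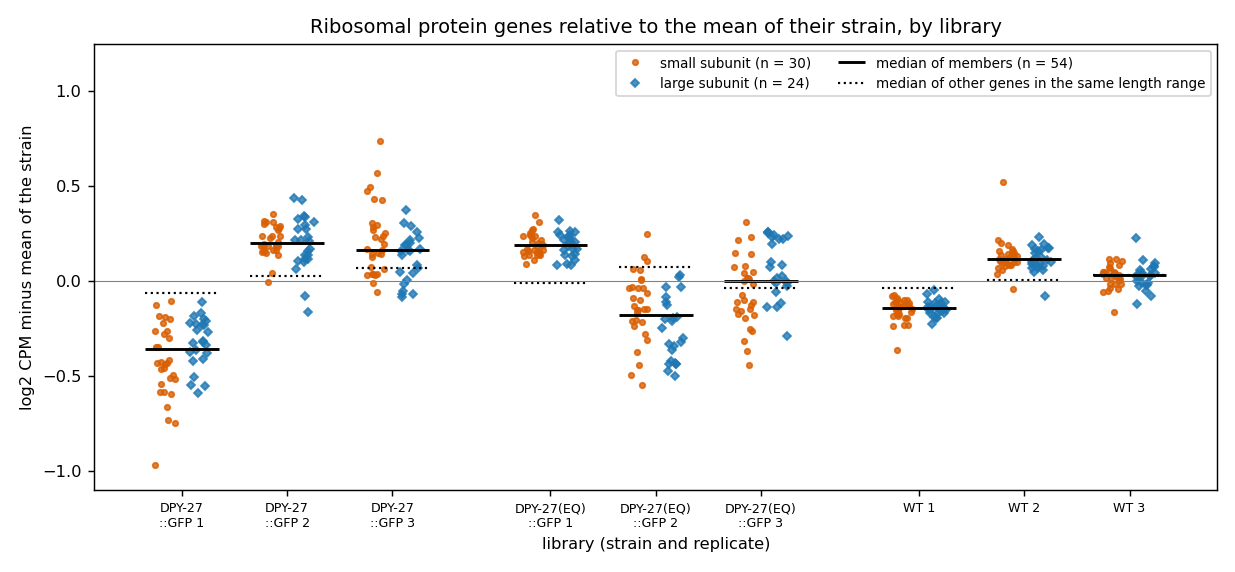
Log2 CPM of each ribosomal protein gene minus its mean over the 3 libraries of the strain, for each library; circles are small subunit genes, diamonds large subunit genes, solid lines the median of the 54 members and dotted lines the median of 6116 other genes of 252 to 1456 exonic bases. All members lie below 0 in DPY-27::GFP replicate 1 (median -0.36) and in WT replicate 1, and all lie above 0 in DPY-27(EQ)::GFP replicate 1 (median 0.19).

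The first comparison asks which ribosomal protein genes differ in embryos of the DPY-27::GFP strain from wild type. In DPY-27::GFP, 7 of the 54 genes were called lower (rps-19, rps-21, rps-27, rps-28, rpl-9, rpl-18 and rpl-23) and 0 were called higher. Over all genes tested, 7.45% were called lower and 3.42% higher, and among other genes of 400 to 700 exonic bases, the length of 32 members, 18.9% to 22.9% were called lower. At an unadjusted p under 0.05, edgeR gave 14 lower and 3 higher members, and DESeq2 called 8 lower and 3 higher (rpl-3, rpl-7 and rps-8) at the adjusted threshold, beside 8.33% and 6.97% of all genes. The median log2 fold change was -0.21 over the members, against -0.01 over all genes. It was -0.23 for the 30 small subunit genes, of which 24 lay below 0, and -0.07 for the 24 large subunit genes, of which 13 lay below 0. All DPY-27::GFP libraries lay below all wild-type libraries in CPM for 14 members and above them for 4, while over all genes tested the shares were 18% and 10.9%.

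The largest difference was in rps-21 (F37C12.11, chromosome III, 7189078 to 7189576), a small protein of the 40S subunit whose yeast counterpart binds the protein made by RPS0. Its level was 34.4, 65.8 and 85.9 CPM in DPY-27::GFP, against 134, 247 and 154 CPM in wild type, the log2 fold change being -1.52 ± 0.32 (edgeR adjusted p 0.0133). Every DPY-27::GFP library was below every wild-type library, although wild-type replicate 2 stood well above the other wild-type libraries. In TPM the gap was wider, with 368, 633 and 754 TPM in DPY-27::GFP against 2864, 3180 and 2957 TPM in wild type, and the wild-type libraries were close to each other.

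Other short genes of the small subunit fell in DPY-27::GFP. For rps-28 (Y41D4B.5, chromosome IV, 1659341 to 1660010), whose product sits near the mRNA exit of the 40S subunit, the DPY-27::GFP libraries had 56.9, 131 and 186 CPM, against 252, 341.5 and 306 CPM in wild type (log2 fold change -1.27 ± 0.33, edgeR adjusted p 0.0306). The zinc finger protein gene rps-27 (F56E10.4, chromosome V, 103384 to 104070) had 162, 302.5 and 297 CPM in DPY-27::GFP embryos and 443, 529 and 504 CPM in wild type (-0.96 ± 0.21, adjusted p 0.0163). In both genes DPY-27::GFP replicate 1 was far the lowest library, and the strains did not overlap with or without it. The fourth small subunit gene, rps-19 (T05F1.3, chromosome I, 9625047 to 9625998), whose human counterpart is mutated in Diamond-Blackfan anaemia, had 208, 340 and 308 CPM in DPY-27::GFP against 421, 511 and 478 CPM in wild type (-0.72 ± 0.17, adjusted p 0.0228). On the TPM scale this gene overlapped, with 847, 1262 and 1046 TPM in DPY-27::GFP embryos and 1161, 1337 and 1210 TPM in wild type.

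Of the large subunit genes, rpl-23 (B0336.10, chromosome III, 5705467 to 5706281), which encodes a protein on the face that meets the small subunit, had the smallest adjusted p of all members. It had 222, 398 and 389 CPM in DPY-27::GFP embryos and 618, 726 and 702 CPM in wild type, the log2 fold change being -1.02 ± 0.20 (edgeR adjusted p 0.0101). The gene rpl-18 (Y45F10D.12, chromosome IV, 13777783 to 13779062), the most abundant large subunit mRNA of wild type, had 614, 1012 and 821 CPM in DPY-27::GFP against 1251, 1481 and 1450 CPM in wild type (-0.77 ± 0.22, adjusted p 0.0417). With the replicate number as a block, rpl-18 was no longer past the threshold (adjusted p 0.0641), and it was the only 1 of the 7 calls that changed. The seventh gene called, rpl-9 (R13A5.8, chromosome III, 7572037 to 7572766), falls outside the rule for named genes and was chosen after its values were seen. It had 405, 652 and 591 CPM in DPY-27::GFP embryos and 837, 1007.8 and 1033 CPM in wild type (-0.80 ± 0.21, adjusted p 0.032).

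**Figure D3:**
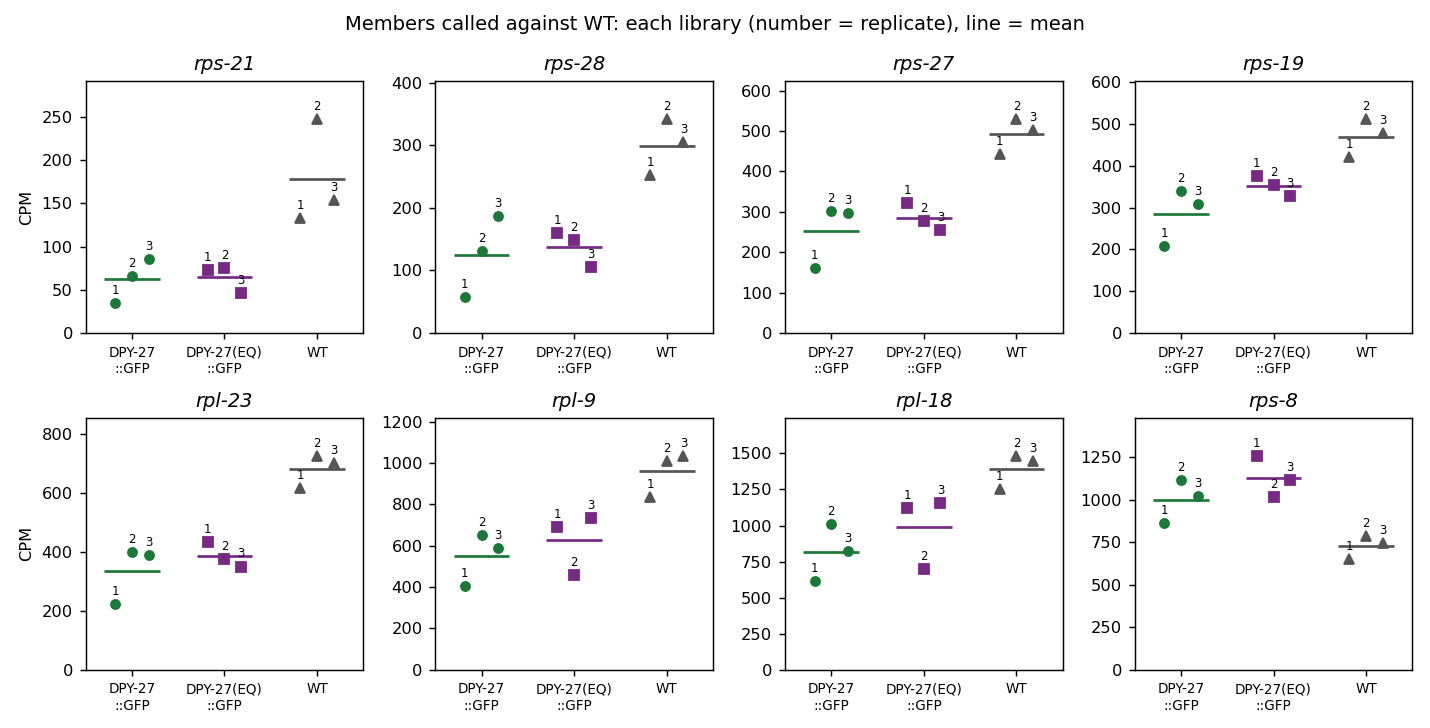
CPM (reads on the gene relative to all gene reads, TMM scaled) in each library for the 8 members called in at least 1 comparison with WT; points are libraries numbered by replicate and lines are means of 3. For the first 7 genes all libraries of both transgenic strains lie below all WT libraries, and for rps-8 they lie above them; DPY-27::GFP replicate 1 is the lowest library of its strain throughout.

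Most other members of known function were not called. The gene for RPS-6, the substrate of S6 kinase, had 783, 995 and 914 CPM in DPY-27::GFP embryos and 866, 1032 and 967 CPM in wild type (log2 fold change -0.09 ± 0.18). The mRNA entry channel protein gene rps-3 had 744, 890 and 1075 CPM in DPY-27::GFP against 677, 923 and 805 CPM in wild type (0.17 ± 0.17). For rps-0 there were 1174, 1414 and 1274 CPM in DPY-27::GFP embryos and 1090, 1294 and 1205 CPM in wild type (0.11 ± 0.16). The strains overlapped for each of these, as they did for rps-14 (-0.03 ± 0.20), for rpl-10, which takes part in late maturation of the 60S subunit (0.00 ± 0.15), and for the 5S RNA binding partner gene rpl-5 (-0.35 ± 0.20). The highest log2 fold change was that of rps-8 (0.46 ± 0.14, adjusted p 0.0615), followed by rpl-3, the gene for a protein next to the peptidyl transferase centre (0.45 ± 0.16, adjusted p 0.0857). For both, all 3 DPY-27::GFP libraries lay above all wild-type libraries: rpl-3 had 1530, 1778 and 1660 CPM in DPY-27::GFP against 1173, 1304 and 1170 CPM in wild type.

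The number of calls changed with the libraries used, among all genes as well as among the members. Without DPY-27::GFP replicate 1, edgeR called 2 members lower (rpl-23 and rps-27) and the median log2 fold change of the members was 0.045, on the other side of 0; of all genes, 67 were then called higher and 287 lower, against 432 and 942 with all libraries. Without wild-type replicate 1, 2 or 3 the members called lower were 2, 1 and 0, while 345, 523 and 276 of all genes were called lower. Without DPY-27::GFP replicate 2, the library in which dpy-27 was not raised, 9 members were called lower and 0 higher, and 816 and 378 of all genes.

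The second comparison sets DPY-27(EQ)::GFP embryos against wild type. Here 3 members were called lower (rps-21, rps-27 and rpl-23) and 1 higher (rps-8), where 5.08% of all genes tested were called lower and 1.82% higher. The median log2 fold change was -0.03 over the members, as over all genes (-0.03), with -0.09 for the small and 0.12 for the large subunit. At an unadjusted p under 0.05, 7 members were lower and 8 higher, and DESeq2 called 4 lower and 5 higher (rps-8, rpl-3, rpl-6, rpl-7 and rpl-19), beside 7.48% and 5.34% of all genes. In CPM, 12 members did not overlap and were lower, and 8 were higher, against 22.4% and 19.3% of all genes. Since both transgenic strains were set against the same wild-type libraries, the genes shared by both comparisons are not separate evidence.

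In DPY-27(EQ)::GFP, rps-21 had 72.5, 75.2 and 46.6 CPM (log2 fold change -1.46 ± 0.32, edgeR adjusted p 0.0199), and its TPM of 657, 745 and 439 compares with 2864 to 3180 TPM in wild type. The gene rps-27 had 322.5, 277 and 256 CPM (-0.79 ± 0.21, adjusted p 0.043), and rpl-23 had 435, 377 and 351 CPM (-0.82 ± 0.20, adjusted p 0.0332). All of these lay below every wild-type library. The only member that edgeR called higher with all 9 libraries was rps-8 (F42C5.8, chromosome IV, 7312969 to 7313855), which encodes a protein in the body of the 40S subunit. It had 1256, 1017 and 1114 CPM in DPY-27(EQ)::GFP against 653, 787 and 745 CPM in wild type, the log2 fold change being 0.63 ± 0.14 (adjusted p 0.025). The large subunit genes closest to the threshold were also higher, namely rpl-7 (0.49 ± 0.15, adjusted p 0.0675) and rpl-3 (0.51 ± 0.16, adjusted p 0.0686).

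This comparison too changed with the libraries used. Leaving out 1 library left 0 calls without DPY-27(EQ)::GFP replicate 1, without its replicate 3 or without wild-type replicate 2 or 3. Over all genes the calls in these 4 fits were 33, 27, 66 and 18 higher and 255, 220, 385 and 223 lower, against 230 and 642 with all libraries. Among the members, 2 calls, rps-8 and rpl-3, both higher, were left without DPY-27(EQ)::GFP replicate 2, and 1, rps-21, without wild-type replicate 1. Over all genes these 2 fits called 97 and 26 higher and 347 and 281 lower. A fit to the 2 strains alone called 8 members higher and 7 lower, and 1491 and 1551 of 13501 genes in all. Among libraries that share a name prefix, DPY-27(EQ)::GFP replicate 3 against the 3 wild-type libraries, 8 members were called higher and 5 lower (931 and 884 of 15251 genes in all), with a median of 0.055, and this single library was assumed to vary like those of wild type. No such subset exists for DPY-27::GFP against wild type, where prefix and strain cannot be told apart.

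The third comparison sets the ATPase mutant against the unmutated DPY-27::GFP. Here edgeR called 0 of the 54 members in either direction, and 0.0% of all 12643 genes. At an unadjusted p under 0.05 there were 0 members and, over all genes, 70 higher (0.554%) and 46 lower (0.364%); DESeq2 and limma on TPM called 0 members too. The log2 fold changes of single members ran from -0.01 to 0.36 with standard errors of 0.14 to 0.32, and for 54 of 54 the libraries of the strains overlapped in CPM, while over all genes 2.58% were higher and 1.45% lower without overlap. In TPM 0 members were without overlap too, beside 1.68% higher and 1.23% lower over all genes. The smallest was that of rps-25 (-0.01 ± 0.24), with 430, 376 and 289 CPM in DPY-27(EQ)::GFP and 220, 397 and 486 CPM in DPY-27::GFP. The largest, rps-15, had 868, 670 and 588 CPM in DPY-27(EQ)::GFP and 373, 682 and 598 CPM in DPY-27::GFP (0.36 ± 0.21). Of the 54 members, 52 had a fold change above 0 (median 0.17), while 6167 of the 12643 genes did. That count follows 1 library: without DPY-27::GFP replicate 1, in which all members were lowest, the median was -0.02. The differences were of similar size in both subunits (median 0.17 in each).

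The size of the difference from wild type went with transcript length. The shortest members were rps-28 with 252 exonic bases, rps-21 with 306 and rps-27 with 369, and these were 3 of the 4 with the most negative fold changes in DPY-27::GFP. Across the 54 members, the log2 fold change of DPY-27::GFP against wild type correlated with log2 exonic length with Pearson's r 0.59 (Spearman's rho 0.50), and without the 3 shortest genes r was 0.39 (rho 0.41, 51 genes). For DPY-27(EQ)::GFP embryos against wild type r was 0.58 (rho 0.47), and between the transgenic strains it was -0.12 (rho -0.16). These are correlations across genes that share libraries, and genes are not independent replicates. Other genes showed a trend in the same direction (r 0.29, rho 0.37, 12364 genes). Of 272 other genes of at most 400 bases, 31.6% were called lower in DPY-27::GFP, with a median log2 fold change of -0.70, and the 4 members of that length had a median of -1.11. Between 400 and 1000 bases the members had less negative medians than other genes of their length in each of the 5 classes, for example -0.32 against -0.52 at 400 to 500 bases and 0.28 against -0.27 at 700 to 800 bases. At 1000 to 1500 bases the 3 members were the more negative, with a median of -0.11 against -0.07.

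**Figure D4:**
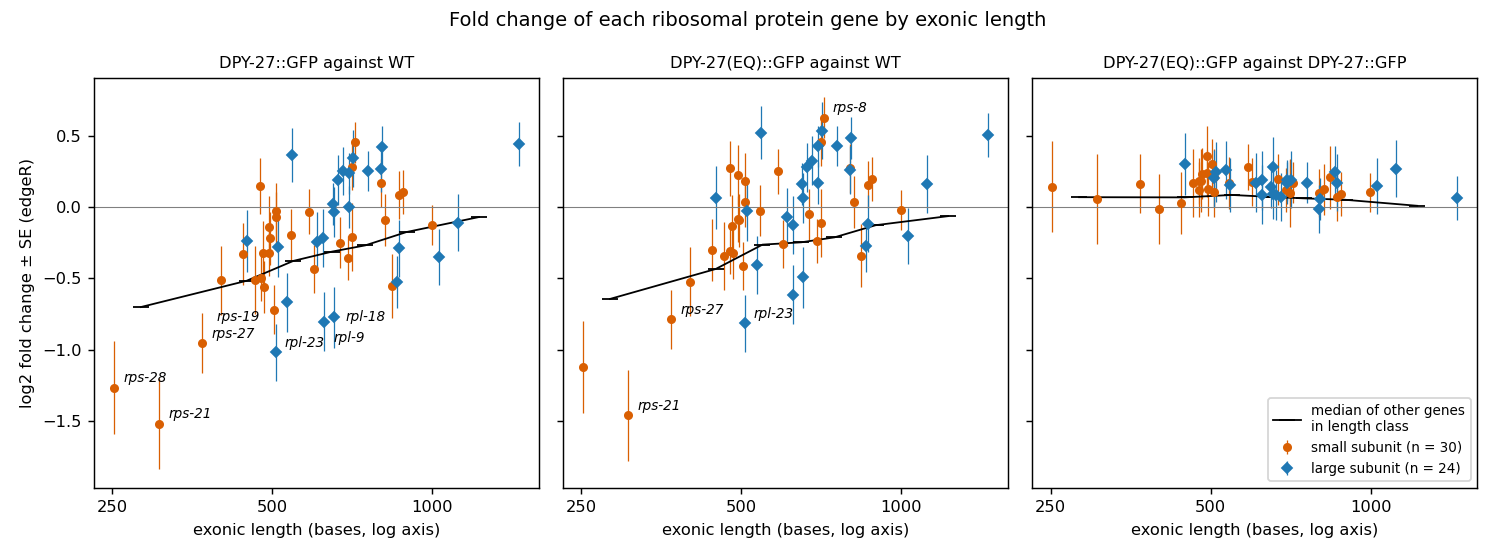
Log2 fold change (edgeR, with its standard error) of each member against exonic length in bases (log axis) for the 3 comparisons; circles are small subunit genes, diamonds large subunit genes, the black line joins medians of the other genes in classes of length, and names mark members called. The 3 shortest genes have some of the most negative fold changes against WT in both transgenic strains. Across 54 members r is 0.59 and 0.58, and no slope of that kind is seen between the transgenic strains.

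When the trend on exonic length in the other genes was taken out of each library, which was decided on after the data were seen, the calls among the members changed. In DPY-27::GFP, 7 members were then called higher (rps-7, rps-8, rps-24, rpl-6, rpl-7, rpl-19 and rpl-24.1) and 2 lower (rps-21 and rpl-23), with 2.42% and 4.65% of all genes called, and the median was 0.14. For DPY-27(EQ)::GFP, 10 were called higher and 1 (rps-21) lower, where the shares of all genes were 1.67% and 3.66%, with a median of 0.25. The log2 fold change of rps-21 was then -0.85 in DPY-27::GFP (adjusted p 0.0403) and -0.88 in DPY-27(EQ)::GFP (adjusted p 0.0411), and that of rps-8 was 0.73 and 0.82 (adjusted p 0.0062 and 0.00286). The gene rps-21 was the only member called lower against wild type in both strains with and without this correction. A correlation of 0.31 with length stayed among the members in DPY-27::GFP after the correction, and 0.07 without the 3 shortest.

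The TPM table gave another balance of higher and lower genes. On the log2(TPM + 1) scale the median over all genes tested was shifted by 0.24 in DPY-27::GFP embryos and by 0.20 in DPY-27(EQ)::GFP embryos against wild type, and the median of the members was 0.055 and 0.17. Relative to those shifts the members lay at -0.18 and -0.04. All libraries of DPY-27::GFP lay above all wild-type libraries in TPM for 16 members and below them for 9, against 27.4% and 8.83% of all genes, and for DPY-27(EQ)::GFP the counts were 21 and 9, against 39% and 9.3%. With limma, 6 members were called higher (rps-1, rps-8, rpl-1, rpl-3, rpl-7 and rpl-10) and 5 lower (rps-21, rps-27, rps-28, rpl-9 and rpl-23) in DPY-27::GFP, where 10.8% and 3.62% of all genes were called. With DPY-27(EQ)::GFP 8 were called higher and 1 lower, rps-21, with 5.4% and 2.36% of all genes. The log2 fold change of rps-21 was -2.42 and -2.32 on this scale (adjusted p 0.000817 and 0.00115). For most members the ratio of counts to TPM was nearly fixed among the 6 transgenic libraries, with a median SD of 0.010 on the log2 scale. Among the wild-type libraries the median SD was 0.014. Exceptions included rps-21, with an SD of 0.358 among the wild-type libraries, and rps-16, with 0.108 among the transgenic ones. Between wild type and the transgenic libraries the ratio differed by -0.28 to 1.12 from member to member. It differed by more than 0.2 in size for 15 of the 54 members. Over all genes with at least 50 counts and 1 TPM in every library, 1761 of 8338 differed by more than 0.2. The most distant member was rps-21, at 1.12. DPY-27(EQ)::GFP replicate 3, which shares the prefix of the wild-type libraries, had the ratios of the other transgenic libraries, within -0.07 to 0.06. The conversion from counts to TPM was thus not the same in wild type as in the transgenic libraries, so a member's fold change against wild type depends on which table is used. How the tables came to differ was not tested.

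Small and large subunit genes were compared within each library. Reads on small subunit genes divided by reads on large subunit genes gave 0.899, 0.934 and 0.982 in DPY-27::GFP embryos, 0.945, 1.01 and 0.889 in DPY-27(EQ)::GFP and 1.022, 1.023 and 1.029 in wild type. The means were 0.938 ± 0.041, 0.948 ± 0.060 and 1.02 ± 0.0036 (SD, n = 3 each). All 6 transgenic libraries lay below all 3 wild-type libraries, and the transgenic strains overlapped. With summed TPM the ratios were 1.13 ± 0.083 in DPY-27::GFP, 1.14 ± 0.106 in DPY-27(EQ)::GFP and 1.28 ± 0.0046 in wild type, with the same absence of overlap. The small subunit genes are the shorter ones, and all 4 members of at most 400 bases belong to them, so subunit and length cannot be told apart in this ratio. Whether the absence of overlap holds without these 4 genes was not tested. The ratio also varied more between the libraries of each transgenic strain than between those of wild type.

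**Figure D5:**
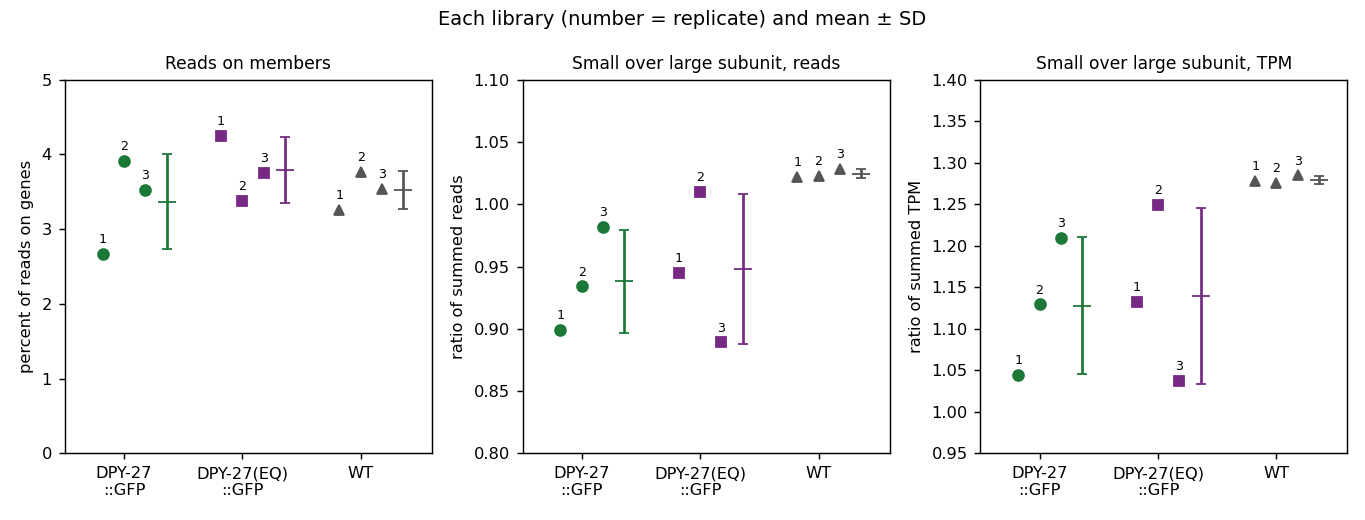
Percent of reads on genes taken by the members (left), ratio of reads on small over large subunit genes (middle) and the same ratio of summed TPM (right) in each library, numbered by replicate, with the mean and SD of each strain beside the points. The shares overlap between strains, while the ratios lie at 0.889 to 1.01 in the transgenic libraries and at 1.022 to 1.029 in WT.

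Genes with related roles were listed to set the members beside them. Another 23 genes of cytosolic ribosomal proteins, including the acidic stalk proteins, were tested, and in DPY-27::GFP 0 were higher and 4 lower, with a median log2 fold change of -0.40. Over all genes tested, 3.42% were called higher and 7.45% lower. The median exonic length of this set was 447 bases. At 400 to 500 bases, 22.9% of genes other than the members were called lower, with a median of -0.52. The 4 genes of the set that were called were rpl-37, rpl-39, rps-29 and rla-1. The very short rpl-39 had 51.7, 119 and 148 CPM in DPY-27::GFP embryos and 235.2, 288 and 239 CPM in wild type (-1.26 ± 0.30, adjusted p 0.0239). The gene rps-29 had 116, 230 and 263 CPM in DPY-27::GFP against 360, 461 and 452 CPM in wild type (-1.07 ± 0.26, adjusted p 0.024). For rpl-37 the tables differed: its counts fell by 1.22 on the log2 scale (adjusted p 0.00878), with 173, 283 and 212 TPM in DPY-27::GFP against 162, 230 and 184 TPM in wild type. In TPM the strains overlapped, and its log2 fold change of 0.195 was under the median shift of 0.239 over all genes. In DPY-27(EQ)::GFP, 0 were higher and 1, rpl-37, was lower, beside 1.82% and 5.08% of all genes. The summed level of these 23 genes was 5024 CPM in DPY-27::GFP replicate 1, the library in which the members were also lowest, and 8665 and 8282 CPM in the other replicates of that strain.

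The ribosome of the mitochondrion, which has its own set of nuclear genes, showed 1 of 68 genes higher and 11 lower in DPY-27::GFP (median -0.30) and 3 higher and 1 lower in DPY-27(EQ)::GFP (median -0.20). The shares of all genes were 3.42% higher and 7.45% lower for DPY-27::GFP embryos, while for DPY-27(EQ)::GFP they were 1.82% and 5.08%. The largest difference was in mrpl-36, with 5.29, 7.64 and 8.099 CPM in DPY-27::GFP embryos and 11.3, 12.3 and 7.39 CPM in DPY-27(EQ)::GFP, against 26.01, 23.1 and 25.2 CPM in wild type (-1.82 ± 0.23 and -1.28 ± 0.22, adjusted p 0.000625 and 0.00592). It is as short as the shortest members, with 309 exonic bases. Unlike the cytosolic genes, its summed set did not single out DPY-27::GFP replicate 1, where the 68 genes had 1766 CPM against 1782 CPM in replicate 2.

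Factors that act with the ribosome were also counted, beside 3.42% of all genes called higher and 7.45% called lower for DPY-27::GFP embryos, while for DPY-27(EQ)::GFP the shares were 1.82% and 5.08%. Of 34 translation initiation factors, 1 was higher and 4 lower in DPY-27::GFP (median -0.22), and 1 was higher and 3 lower in DPY-27(EQ)::GFP (median -0.20). The higher gene in both was eif-4A3, a helicase of the exon junction complex, with 336.2, 234.5 and 353 CPM in DPY-27::GFP embryos and 275, 320 and 259 CPM in DPY-27(EQ)::GFP, against 190, 193 and 188 CPM in wild type (0.69 ± 0.16 and 0.58 ± 0.16, adjusted p 0.0191 and 0.0473). The gene eif-6, whose product keeps the large subunit from joining too early, was lower in both strains (-0.56 ± 0.15 and -0.59 ± 0.15). Of 6 elongation factors, 1 was lower in each strain, eef-1B.1, the log2 fold change being -0.65 ± 0.17 in DPY-27::GFP embryos and -0.64 ± 0.17 in DPY-27(EQ)::GFP. Of 33 ribosome biogenesis factors, 0 were higher and 2 lower in DPY-27::GFP, eif-6 and the nucleolar protein gene dao-5, with a median of 0.07. In DPY-27(EQ)::GFP there were 0 higher and 1 lower (eif-6). On the log2 TPM scale dao-5 had a fold change of 0.20 in DPY-27::GFP, under the median shift of 0.24 over all genes. The 4 subunits of RNA polymerase I, which makes the ribosomal RNA precursor, gave 0 calls in either direction, with a median of 0.13 in DPY-27::GFP.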

How the data were processed

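Polyadenylated RNA of mixed embryos was sequenced from stranded (dUTP) libraries, 3 for each strain. The authors deposited read counts per gene (HTSeq 0.6.1p1 by the submitters' processing notes, WS220) and TPM per gene from Cufflinks 2.2.0. Whether reads were counted by strand is not given in the sources used here, and the study describes its mRNA-seq for a different strain. Deposited columns of fold changes and p-values from the authors' own comparisons were not used, and 0 per-sample columns were left out. Rows that name no gene (12.6% to 13.5% of all rows' counts in DPY-27::GFP, 12.8% to 21.2% in DPY-27(EQ)::GFP, 55.2% to 58.2% in wild type) stayed out of library sizes. Of 20389 genes, 12643 passed edgeR's filterByExpr. Counts of all 9 libraries were fitted together with edgeR 4.0.16 in R 4.3.3 (TMM, quasi-likelihood test, two-sided, Benjamini-Hochberg, adjusted p under 0.05). A prior count of 2 was set only for values on the log2 CPM scale. TPM was tested with limma 3.58.1 on log2(TPM + 1), which understates changes of low genes, and counts again with DESeq2 1.42.0. The fit was tested on simulated counts. The rule for the members is by gene name and uses no measured value, but this gene family and the related lists were taken up with earlier results of these data known. Values per library are given, by rule, for up to 4 called members of smallest adjusted p per comparison and direction, the highest and lowest fold change per comparison, the 2 highest and 2 lowest mean TPM per subunit and 8 members fixed by name, and up to 3 called genes per related list. Alternatives were other scalings and filters, 2-strain fits, a replicate block, each library left out, libraries of 1 name prefix and, chosen after seeing the data, removal of the trend on exonic length. Same-numbered DPY-27::GFP and wild-type libraries deviated together (correlations 0.103, 0.423 and 0.449), so the replicate block is given there as a pairing from the data alone. The first value was close to the 0.0783 of DPY-27::GFP replicate 2 with wild-type replicate 1. The block was fitted to all 9 libraries, although same-numbered libraries of the transgenic strains went opposite ways (-0.247, -0.479 and -0.131). All library pairs within a strain differed beyond sampling noise. No sequences are printed.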

Additional observations from a re-analysis of the deposited data

How the results depend on the processing

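The comparisons with wild type depended on the setting, and the cause was not tested. For DPY-27::GFP against wild type, where edgeR called 7 members, DESeq2 and limma on log2(TPM + 1) each called 11. The median log2 fold change was 0.055 with a pseudocount of 1 or 0.1 on TPM and 0.14 with the length trend removed. Leaving out 1 library gave 0 to 9 calls and medians of -0.29 to 0.045. For DPY-27(EQ)::GFP against wild type, where 4 were called, DESeq2 and limma on log2(TPM + 1) called 9, the fit to both strains alone 15, the libraries of 1 prefix 13, and removal of the length trend 11. A minimum of 10 counts in every library and upper-quartile scaling each gave 2, and leaving out 1 library gave 0 to 2. Over all genes, the minimum of 10 counts called 177 higher and 424 lower of 11105. Upper-quartile scaling called 241 higher and 510 lower of 12643. The median was 0.17 with either pseudocount and 0.25 with the length trend removed. With the replicate block, 6 members were called in DPY-27::GFP embryos, beside 252 higher and 754 lower of all 12643 genes. In DPY-27(EQ)::GFP the block called 3 members, beside 160 higher and 517 lower of all genes. There rps-27 was lost and same-numbered libraries did not deviate together. Between the transgenic strains the block gave 0 calls, as did every other setting. As shares of TPM the members took 8.89% in DPY-27::GFP, 9.75% in DPY-27(EQ)::GFP and 9.01% in wild type, and the small over large ratio was 1.13, 1.14 and 1.28. No called member changed its direction under these settings, while the medians over members did. Over the alternatives, the adjusted p of rpl-23 in DPY-27::GFP ran from 0.000324 to 0.0769 and that of rps-21 from 0.000231 to 0.0626, and that of rps-8 in DPY-27(EQ)::GFP from 0.00102 to 0.133.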
